A study of Mus musculus with 6 samples.

Results

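The Slc25a genes encode mitochondrial carriers. They were taken as every row of the deposited table whose symbol starts with Slc25a followed by a digit, which gave 46 of 19764 genes. Of these, 43 had enough reads to be tested. Expression was measured in primary hepatocytes of Bl6/N mice by sequencing of polyA RNA, in 3 Control and 3 TNF libraries. Cells of both groups were starved for 16 h in medium with 5 mM glucose and FBS at 1%, after plating and maintenance media that already held corticosterone. For the next 8 h all of them received corticosterone at 1 µM, which activates the glucocorticoid receptor, and WY-14643 at 10 µM, a ligand of PPARα. Control cells were given vehicle at the same time, and TNF cells 1 ng/ml TNF, an inflammatory cytokine. No age or sex is given, and nothing in the labels ties a replicate to its own animal or culture, so p-values measure the spread between these samples, which may be technical.

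Mitochondrial carriers are small proteins of the inner mitochondrial membrane that exchange nucleotides, phosphate, carboxylic acids, amino acids, carnitine esters, cofactors and iron between cytosol and matrix. In the liver they link compartments: urea synthesis needs ornithine and aspartate to cross the membrane, β-oxidation needs acylcarnitines to enter, and gluconeogenesis and lipid synthesis need malate and citrate to leave. A few family members sit elsewhere, such as Slc25a17 in peroxisomes and Slc25a46 in the outer mitochondrial membrane.

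Library totals lay between 17612060 and 25114289 reads over genes, and a gene with 3 reads, the limit that a count of 0 allows, stood at 0.124 to 0.166 CPM (the authors' depth-scaled read counts; counting error only). Hepatocyte markers were abundant, with Alb at a mean of 34115 CPM. The 10 hepatocyte markers summed to 42302 to 60922 CPM in Control and 42490 to 58613 CPM in TNF, and 3 of them (Ttr, Apoa1 and Hnf4a) were lower and none higher in the fit with replicate pairs described next, while limma-voom with pairs called 4 lower and 1 higher. Summed over 8 genes each, endothelial markers ran from 93.2 to 177 CPM in Control and 112 to 184 CPM in TNF, and cholangiocyte markers from 52.5 to 62.3 and 55.7 to 75.7 CPM. The 7 stellate markers summed to 18.7 to 69.0 CPM in Control and 20.1 to 46.4 CPM in TNF. The 8 macrophage markers summed to 144 to 231 CPM and 146 to 233 CPM, nearly all of it Cd68, with Adgre1 and Clec4f at means of 0.10 and 0.01 CPM. The 7 lymphocyte and neutrophil markers stayed at or under 0.718 CPM in sum, with Cd3d and Nkg7 at 0 reads. Among these lists the fit with pairs called Stab1 higher (19.8 to 36.3 CPM) and Stab2 lower (34.4 to 30.3 CPM), Sox9 higher (22.7 to 35.0 CPM) and Pkhd1 lower (12.5 to 9.88 CPM), and Reln lower (45.3 to 31.2 CPM). The part of these cells in the results below was not tested.

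Control and TNF libraries with the same number deviated together across genes, so each comparison is given from a limma fit without pairs (unpaired) and from one with the replicate number as a block (blocked). "Rose" and "fell" are used of genes with an adjusted p under 0.05 in the blocked fit, and changes are differences of TNF minus Control on the log2(CPM + 1) scale. Values are mean ± SD of 3 libraries, and SEs are those of the unpaired fit. In bulk RNA, fewer cells of a type and less RNA per cell cannot be told apart.

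More carriers were lower than higher with TNF, and most of the changes were small. In the blocked fit 20 of the 43 tested members passed, where 20.6% of all 12293 genes tested did. Of these members 17 fell and 3 rose, against 11.2% of all genes that fell and 9.40% that rose. As shares of the members these were 39.5% and 6.98%. In the unpaired fit 1 member passed, Slc25a47, which was lower with TNF. There 0.431% of all genes passed, 0.0732% of them lower and 0.358% higher, the percentages being of all genes tested. At an unadjusted p under 0.05 in the unpaired fit 7 members were lower (4.31% of all genes) and 1 was higher (4.44%); in the blocked fit 18 were lower (17.5%) and 3 higher (14.2%). The median change of the 43 members was -0.09, and -0.01 over all genes tested. By pair, the members' median was -0.11, -0.12 and -0.12, with 32, 31 and 26 of the 43 lower. All 3 pairs were lower in 19 members (27.7% of all genes) and higher in 6 (23.4%). In 7 members every TNF library lay below every Control library (6.66% of all genes), and in 1 member every TNF library lay above (6.59%). The authors' deposited table gave an adjusted p under 0.05 to 20 members, where 15.2% of its 19764 genes had one. Its calls were 17 lower (8.32% of genes) and 3 higher (6.85%), and all 20 were shared with the blocked fit, which rests on the same reads.

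**Figure D1:**
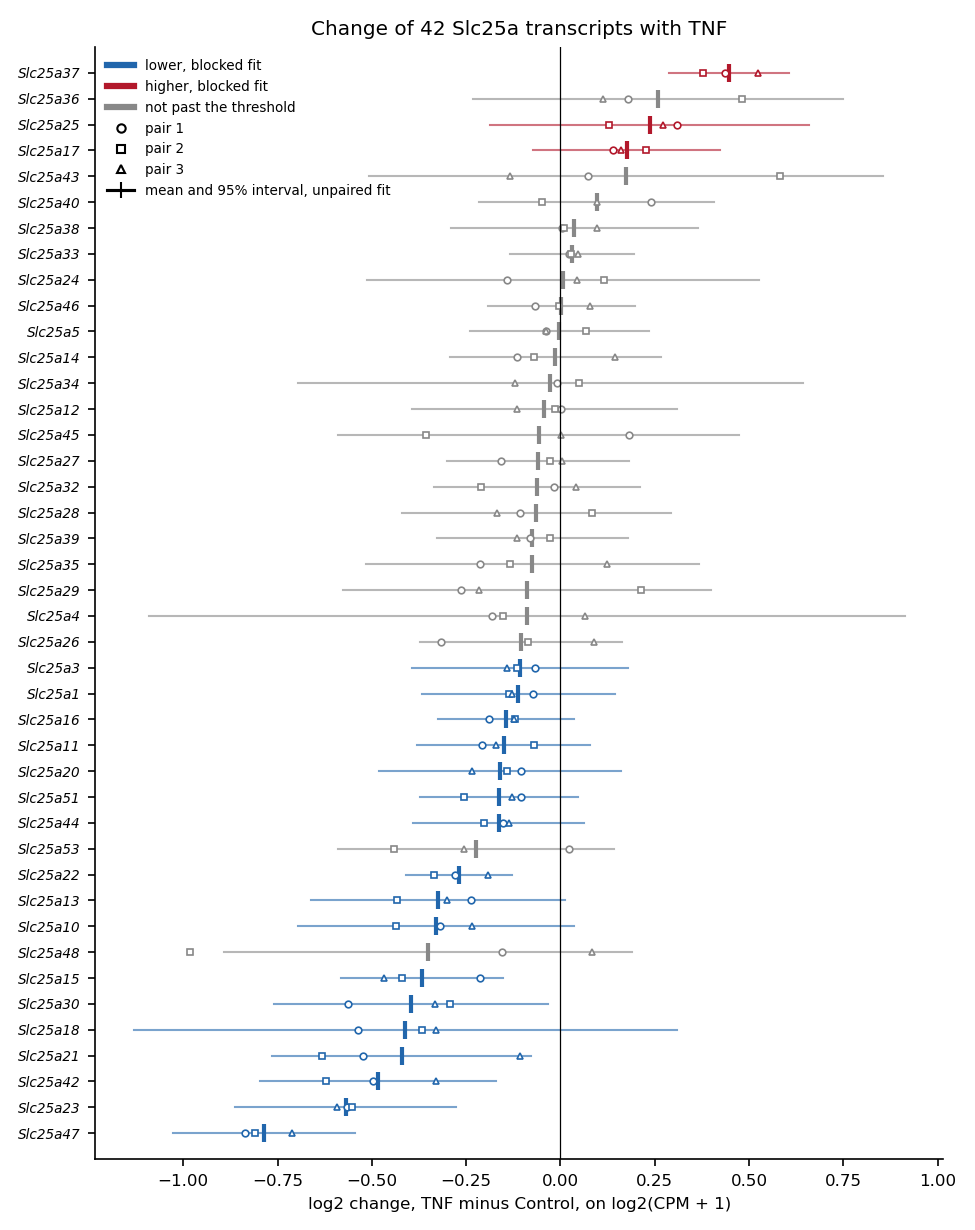
Change of 42 of the 43 tested members with TNF (x axis, TNF minus Control on log2(CPM + 1)); the tick is the mean, the line its 95% interval in the unpaired fit, and open symbols are the 3 pairs. Slc25a47 lies lowest at -0.79 and Slc25a37 highest at 0.45, and of the 20 coloured members past the threshold of the blocked fit 17 lie to the left of 0.

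Slc25a47, a carrier known for its restriction to liver, fell the most. It lies on chromosome 12 (mm10, 108851129 to 108856815, plus strand) and overlaps no other gene of the annotation used. Its level was 101, 121 and 101 CPM in Control 1, 2 and 3 and 56.2, 68.4 and 61.3 CPM in TNF 1, 2 and 3. Every TNF library was thus below every Control library, and the 3 pairs fell by 0.84, 0.81 and 0.71. The mean went from 108 ± 11.4 to 62.0 ± 6.14 CPM (log2 -0.79, SE 0.10), a fall of 42.0% on that scale (-42.0%). Limma gave an adjusted p of 0.0350 unpaired, between 0.0154 and 0.137 over 14 alternatives, and 1.00e-08 blocked, between 2.58e-26 and 0.000121 over 11. The unpaired call was lost whichever single library was left out, with a log2 change between -0.86 and -0.70.

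Slc25a20, the carrier that exchanges acylcarnitines for carnitine, fell far less. It stood at 85.0, 106 and 83.3 CPM in Control 1 to 3 and 79.1, 96.1 and 70.7 CPM in TNF 1 to 3. The groups overlap, while each pair was lower with TNF. The log2 change was -0.16 (SE 0.14), with an adjusted p by limma of 0.929 unpaired and 0.0117 blocked; the blocked value was 0.0927 without replicate 3 and lay between 0.00474 and 0.0927 over the alternatives. In CPM the means were 108 for Slc25a47 and 91.5 for Slc25a20 in Control, and 62.0 and 81.9 in TNF. Counted lengths include introns (5687 bases for Slc25a47, 22544 for Slc25a20), so a ratio per kb is not that of mature RNA. Per kb of counted length, Slc25a47 stood 4.72, 4.51 and 4.81 times as high as Slc25a20 in Control and 2.82, 2.82 and 3.44 times as high in TNF. That ratio changed by a log2 of -0.63, and its groups do not overlap. An exact permutation test, two-sided and without pairs, gave p = 0.10, the smallest that 3 against 3 libraries allow, and 0.133 after adjustment over the 4 ratios computed. The ratio was chosen after values were seen, which the adjustment does not cover.

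Promoter sequence is shown here of the member that fell the most, of Slc25a23, which fell next most, and of Slc25a17, which rose. Of the 2 members that rose and had a promoter, Slc25a17 is the one with a match, and it rose less than Slc25a25. The sequences set the genes beside motifs of the receptors whose ligands both groups received, among others. Each holds the 250 bases before the transcript start (RefSeq, GRCm38.p6), 5′ to 3′ on the gene's strand. Capitals mark matches to the 5 motifs named below. The windows are chr12:108850879-108851128 (plus strand), chr17:57059864-57060113 (minus strand) and chr15:81360766-81361015 (minus strand).
Slc25a47: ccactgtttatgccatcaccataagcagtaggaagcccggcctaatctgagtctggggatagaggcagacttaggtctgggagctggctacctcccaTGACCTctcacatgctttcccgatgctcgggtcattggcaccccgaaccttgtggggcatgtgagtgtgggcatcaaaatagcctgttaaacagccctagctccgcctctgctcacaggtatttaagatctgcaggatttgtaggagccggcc
Slc25a23: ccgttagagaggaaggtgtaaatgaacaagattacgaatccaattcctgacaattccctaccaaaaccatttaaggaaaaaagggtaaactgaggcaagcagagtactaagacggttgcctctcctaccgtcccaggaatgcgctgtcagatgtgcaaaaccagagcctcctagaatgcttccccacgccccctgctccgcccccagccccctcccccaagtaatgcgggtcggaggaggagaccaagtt
Slc25a17: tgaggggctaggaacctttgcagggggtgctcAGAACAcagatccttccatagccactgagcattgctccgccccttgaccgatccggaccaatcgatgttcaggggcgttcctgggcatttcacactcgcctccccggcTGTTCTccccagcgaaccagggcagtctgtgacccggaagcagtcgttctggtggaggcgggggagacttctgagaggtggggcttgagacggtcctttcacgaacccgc
Of the 46 members, 36 had a promoter in the table used. The nuclear receptor half-site AGGTCA, on either strand, was found in 4 of the 36 (Slc25a34, Slc25a39, Slc25a45 and Slc25a47) and in 12.2% of 15041 promoters of the same length. In Slc25a47 it lies on the minus strand, 153 to 148 bases before the start. The glucocorticoid receptor half-site AGAACA was found in 4 members and 13.6% of promoters; Slc25a17 holds it at 218 to 213 bases before the start and, on the other strand, at 110 to 105. The E-box CACGTG, which reads the same on both strands, was found in 6 members and 7.07% of promoters. The HNF4A motif CAAAGTCCA, in 0.392% of promoters, was in 0 of the 36, as was a κB motif of NF-κB. Motifs were searched one by one on both strands, and a match is a description of letters only. Slc25a23 held none of the 5 in this window, and neither did Slc25a25, which rose as well. The promoter of Slc25a37 was not used here.

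The ATP-Mg/phosphate carriers, which calcium regulates and which set the adenine nucleotide content of the matrix, moved in different directions. Slc25a23 was at 68.2, 74.3 and 58.6 CPM in Control 1 to 3 and at 45.8, 50.3 and 38.5 CPM in TNF 1 to 3, so the groups do not overlap. It fell by 0.57 (SE 0.12), and by 0.57, 0.55 and 0.59 in the 3 pairs. Slc25a23 shares 759 bases with Crb3 and 3433 bases with Gm17168, both on the other strand. None of these bases was left out of its counted length. The strand setting of the counts is not given, so reads of either gene may be among its counts. The adjusted p of Slc25a23 by limma was 0.148 unpaired and 6.27e-07 blocked. Slc25a25 rose by 0.24 (SE 0.18), from 49.5 ± 11.7 to 58.0 ± 9.60 CPM, with overlapping groups but a higher TNF library in each pair. Its adjusted p by limma was 0.903 unpaired and 0.00321 blocked. A stretch of 1014 bases that Slc25a25 shares with Naif1 on the other strand was left out of its counted length. Slc25a24 stood at 64.8 ± 18.9 and 64.3 ± 13.4 CPM and did not pass. Means in CPM were 67.0 in Control and 44.9 in TNF for Slc25a23, against 49.5 and 58.0 for Slc25a25. Counted lengths include introns, so the height of a ratio per kb is not that of mature RNA. The ratio of Slc25a23 to Slc25a25, per kb, was 3.81, 2.65 and 2.82 in Control and 2.05, 1.64 and 1.53 in TNF. It was lower in every TNF library than in any Control library (log2 -0.82). An exact permutation test, two-sided and without pairs, gave p = 0.10, the smallest possible, and 0.133 adjusted over 4 ratios. This ratio was chosen after values were seen, which the adjustment does not cover, so its separation is no evidence beyond the changes of the 2 genes.

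Carriers at the end of oxidative phosphorylation changed little. The phosphate carrier Slc25a3 fell by 0.11, from 456 ± 55.9 to 423 ± 52.4 CPM, with limma's adjusted p at 0.964 unpaired and 0.0249 blocked; the blocked call was lost without replicate 2, without replicate 3, without a filter on low values and under median-of-ratios scaling. Slc25a5, the main ADP/ATP translocase by level here, was at 376 ± 27.6 and 376 ± 41.6 CPM, and its change of -0.003 had a 95% interval reaching from -0.24 to 0.23. Slc25a4, the ADP/ATP translocase known from heart and muscle, was at 59.8 and 52.6 CPM in the libraries numbered 1 and at 21.7 to 25.2 CPM in the other 4. This difference between replicate numbers, 1.25 on the log2 scale, was the widest of any tested member. It stood beside hepatocyte marker sums of 42302 and 42490 CPM in the libraries numbered 1 and 56947 to 60922 CPM in the others. Most of each sum was Alb. In both groups Alb, Trf, Cyp2e1, Tat and Serpina1a were lowest in the library numbered 1, while Apob and Hnf4a were highest there. The relation of these markers to Slc25a4 was not tested. Reads of Slc25a4, Slc25a5 and their pseudogene copies can be shared, so the split between them is uncertain.

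Nucleotide and cofactor carriers gave 3 members that fell and 1 that rose among 9 tested. Over all genes tested, 11.2% fell and 9.40% rose. Slc25a42, which carries coenzyme A into the matrix, was at 40.6, 54.0 and 40.5 CPM in Control 1 to 3 and at 28.5, 34.7 and 32.0 CPM in TNF 1 to 3. Its groups do not overlap, and the fall of 0.48 (SE 0.13) had an adjusted p by limma of 0.270 unpaired and 5.34e-05 blocked. Slc25a16, also linked to coenzyme A, fell by 0.14 (adjusted p 0.0460 blocked, 0.734 unpaired, limma). It passed in 4 of 11 blocked alternatives, and was lost without replicate 1, 2 or 3, under both other scalings, at pseudocount 5 and with no filter. Slc25a51, the carrier for NAD, fell by 0.16, from 146 ± 13.5 to 130 ± 8.64 CPM, and did not pass without replicate 2. Slc25a17, the carrier of coenzyme A, FAD and NAD in the peroxisomal membrane, rose by 0.18 (SE 0.11) from 80.6 ± 8.97 to 91.1 ± 9.01 CPM. Its adjusted p by limma was 0.810 unpaired and 0.00522 blocked, and each pair was higher with TNF while the groups overlap. Carriers of folate (Slc25a32), S-adenosylmethionine (Slc25a26) and pyrimidine nucleotides (Slc25a33 and Slc25a36) did not pass, with log2 changes between -0.10 for Slc25a26 and 0.26 for Slc25a36, the last at 1.20 CPM or less in every library.

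**Figure D2:**
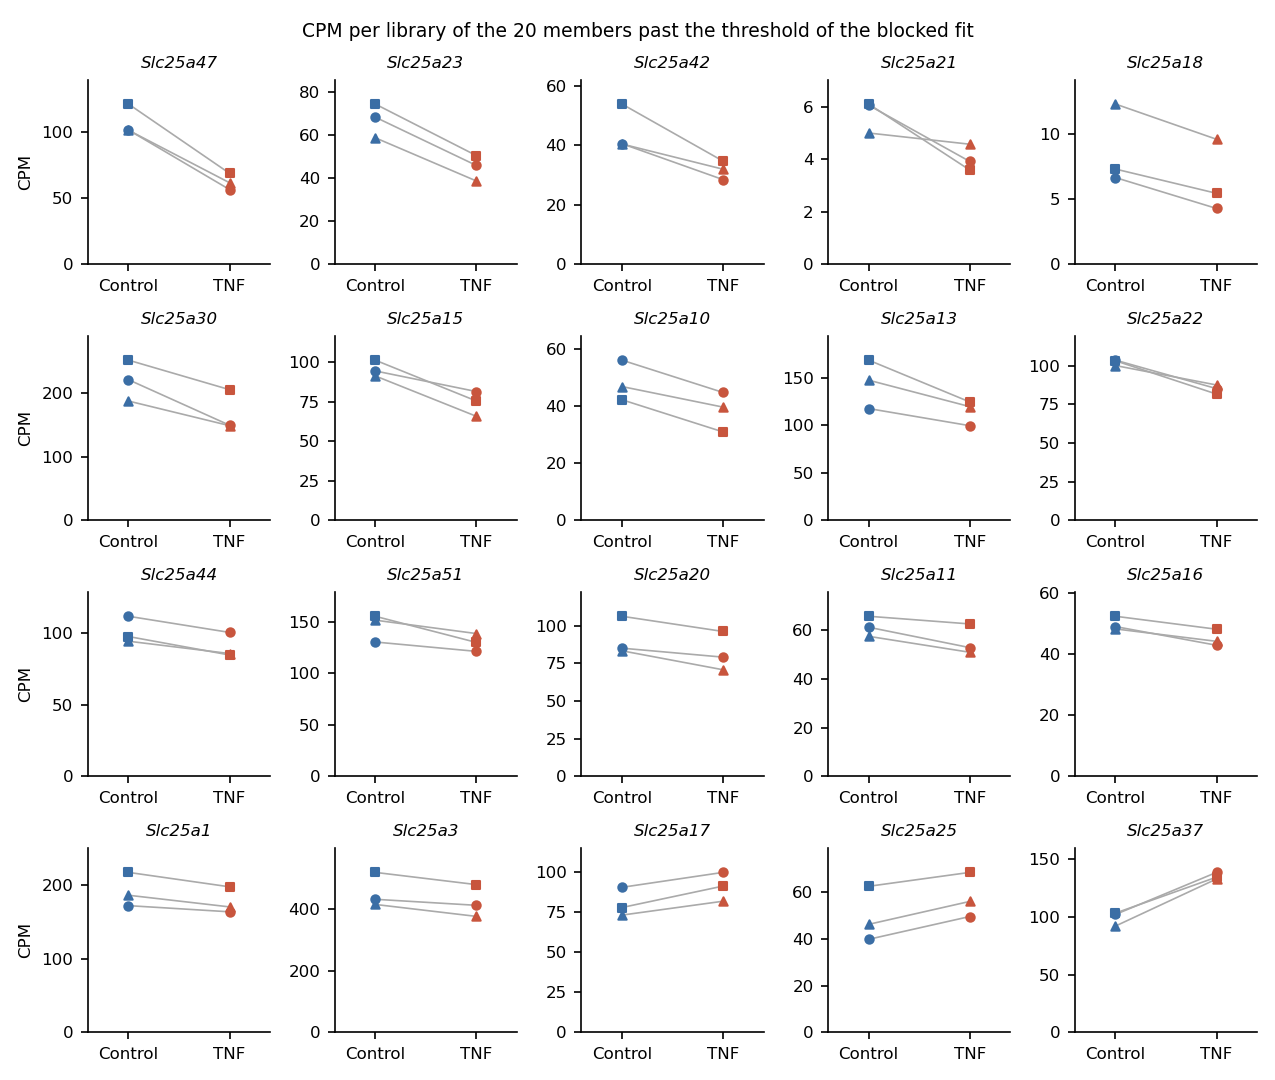
CPM (y axis, from 0) in each library of the 20 members past the threshold of the blocked fit, ordered by change, with Control left and TNF right and lines joining libraries of the same replicate number (circle 1, square 2, triangle 3). Slc25a47, Slc25a23, Slc25a42, Slc25a21, Slc25a15, Slc25a22 and Slc25a16 are lower and Slc25a37 is higher in every TNF library than in any Control library.

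Amino acid carriers fell in 5 of 10 tested cases and rose in none, against 11.2% and 9.40% of all genes tested. At an unadjusted p under 0.05 none was higher in either fit, against 14.2% of all genes blocked and 4.44% unpaired. Limma-voom with the block called none higher. Slc25a15, the ornithine carrier of the urea cycle, was at 94.4, 101 and 91.3 CPM in Control 1 to 3 and at 81.4, 75.4 and 65.7 CPM in TNF 1 to 3. All 3 TNF libraries were below the Control libraries, and the fall of 0.37 (SE 0.09) had an adjusted p by limma of 0.216 unpaired and 8.00e-05 blocked. Slc25a13 (citrin), the aspartate/glutamate carrier of liver, fell by 0.32 (SE 0.14), from 145 ± 25.6 to 115 ± 13.2 CPM, and limma's adjusted p was 0.600 without and 5.05e-05 with the block. Its TNF libraries overlap with Control 1, the lowest Control library, at 118 CPM. Slc25a12 (aralar), the isoform known from brain and muscle, was at 43.5 ± 6.22 and 42.4 ± 7.59 CPM and did not pass. The Slc25a13 to Slc25a12 ratio went down in each pair, by a mean log2 of -0.28, but its groups overlap (exact permutation test, two-sided, p = 0.50), and the value lay between -0.54 and -0.05 with 1 library left out. The glutamate carriers fell as well. Slc25a22 fell by 0.27 (SE 0.06), from 102 ± 1.92 to 84.7 ± 2.96 CPM, without overlap; limma's adjusted p was 0.000236 blocked against 0.159 unpaired. Slc25a18, at 8.72 ± 3.08 and 6.41 ± 2.79 CPM, fell by 0.41 (blocked adjusted p 0.0104, limma), a call lost without replicate 1 and without a filter. Slc25a44, a carrier of branched-chain amino acids, fell by 0.16. The glycine carrier Slc25a38, Slc25a29, Slc25a45 and Slc25a48 did not pass; Slc25a29 and Slc25a48 stayed under 3 CPM in every library.

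Among 9 tested carriers of di- and tricarboxylates and relatives of the uncoupling proteins, 5 fell and none rose (11.2% and 9.40% of all genes). None was higher at an unadjusted p under 0.05 in either limma fit, against 14.2% of all genes blocked and 4.44% unpaired. Limma-voom with the block called none higher. Slc25a30, a relative of the uncoupling proteins, was at 221, 252 and 188 CPM in Control 1 to 3 and 149.6, 206 and 149 CPM in TNF 1 to 3. TNF 2 overlaps the Control range, while each pair was lower, and it fell by 0.40 (SE 0.15). Limma's adjusted p was 2.21e-05 blocked against 0.512 unpaired. The dicarboxylate carrier Slc25a10, which exchanges malate and succinate for phosphate, fell by 0.33 (SE 0.16), from 48.3 ± 7.05 to 38.3 ± 6.98 CPM. The oxoglutarate carrier Slc25a11, which works in the malate-aspartate shuttle, and the citrate carrier Slc25a1 fell by 0.15 and 0.11. Slc25a11 was not called without replicate 1 or replicate 3, Slc25a1 not without replicate 2 or replicate 3, and neither without a filter. The oxodicarboxylate carrier Slc25a21 fell by 0.42 at a low level, 5.74 ± 0.63 to 4.03 ± 0.50 CPM, with non-overlapping groups, and was not called without replicate 1, without replicate 2 or without a filter. Slc25a21 shares 189 bases with Pax9 on the other strand; the strand setting of the counts is not given in the sources used here. Slc25a14, Slc25a27, Slc25a34 and Slc25a35 did not pass, with changes between -0.08 for Slc25a35 and -0.01 for Slc25a14.

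Slc25a37 (mitoferrin-1), which imports iron for heme and iron-sulfur clusters and is best known from red cell precursors, rose the most. It lies on chromosome 14 (mm10, 69241851 to 69285103, minus strand). Its level was 102, 103 and 92.1 CPM in Control 1, 2 and 3 and 139, 135 and 133 CPM in TNF 1, 2 and 3, with every TNF library above every Control library. The log2 change was 0.45 (SE 0.07), a rise of 36.3% on that scale, and 0.44, 0.38 and 0.52 in the pairs. By limma the adjusted p was 0.0536 unpaired, 0.0418 to 0.199 over 14 alternatives, and 1.56e-06 blocked, at most 0.000879 over 11. The unpaired fit passed with median-of-ratios scaling alone. Of 4 unnamed transcripts annotated within the gene, Gm20236 (4540 bases) is on the same strand and Gm27222 (2892 bases) is the longest on the other; reads from them cannot be told apart from it here. Slc25a28 (mitoferrin-2), the more widely expressed isoform, was at 32.3 ± 3.94 and 31.0 ± 5.55 CPM and did not pass. In CPM Slc25a37 was the higher, at means of 99.2 in Control and 135 in TNF. Counted lengths include introns (43253 bases for Slc25a37, 11081 for Slc25a28), so a ratio per kb is not that of mature RNA. Per kb, Slc25a37 stood at 0.735, 0.796 and 0.845 times Slc25a28 in Control and at 1.08, 0.976 and 1.38 times in TNF. The ratio was higher in each TNF library than in any Control library (log2 0.52). An exact permutation test, two-sided and without pairs, gave p = 0.10, the smallest possible, and 0.133 adjusted over 4 ratios. This ratio too was chosen after values were seen, which the adjustment does not cover. Slc25a39 and Slc25a40, which are tied to mitochondrial glutathione import, did not pass (log2 -0.07 and 0.10).

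**Figure D3:**
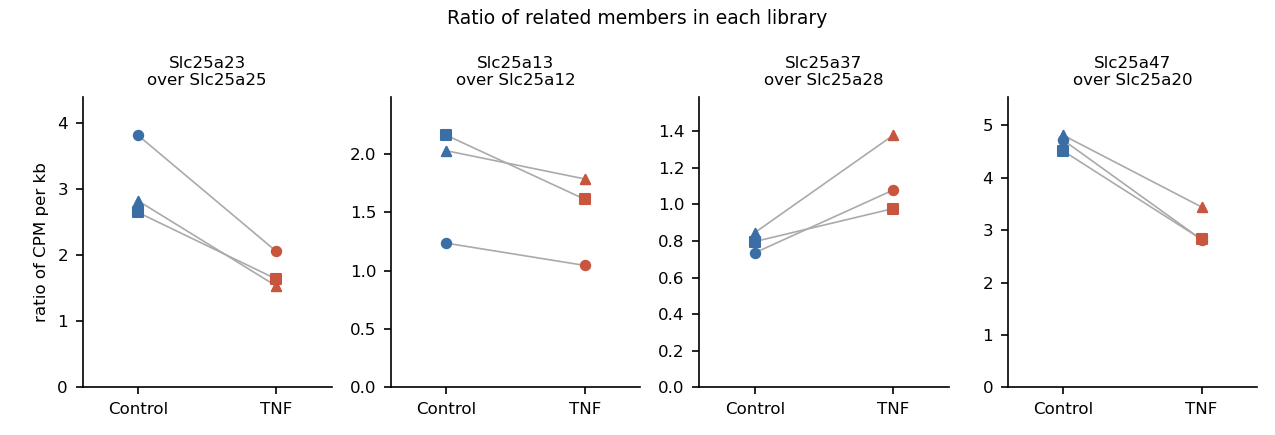
Ratio of CPM per kb of counted length (y axis, from 0) for 4 pairs of related members in each Control and TNF library, with lines joining libraries of the same replicate number. The 4 ratios were chosen after values were seen. Counted length includes introns, so the height of a ratio is not that of mature RNA. Slc25a23 over Slc25a25 and Slc25a47 over Slc25a20 are lower, and Slc25a37 over Slc25a28 is higher, in every TNF library; Slc25a13 over Slc25a12 overlaps.

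Of the 20 members past the blocked threshold, 12 stayed past it under each of 11 alternatives: Slc25a10, Slc25a13, Slc25a15, Slc25a17, Slc25a22, Slc25a23, Slc25a25, Slc25a30, Slc25a37, Slc25a42, Slc25a44 and Slc25a47. The 23 members that did not pass split into 17 with a mean of 5 CPM or more and 6 below it. The 17 changed by -0.12 to 0.10, and the 6 by -0.35 to 0.26. Slc25a31, Slc25a41 and Slc25a54 were not tested: Slc25a31, the testis ADP/ATP translocase, had at most 7 reads in a Control library and 13 in a TNF library, and 0 in both libraries numbered 2. Slc25a41 had 6 reads and Slc25a54 had 2 over the 6 libraries.

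Levels spanned several orders of magnitude. Per kb of counted length, which here includes introns for nearly all members, so that a long gene stands lower than its mature RNA would, Slc25a5 led at a mean of 117 CPM per kb (105 to 131 over the 6 libraries), next to Slc25a39 at 104 CPM per kb (90.5 to 116). These ranges overlap. Slc25a1 (61.4 CPM per kb) and Slc25a3 (59.5) came next and also overlap with each other. A step followed to Slc25a11 at 19.4 CPM per kb and to Slc25a47, which ranked sixth over all libraries at 14.9 CPM per kb at 18.9 ± 2.00 in Control and 10.9 ± 1.08 in TNF. Slc25a20 was at 3.85 CPM per kb, and the lowest tested member, Slc25a21, at 0.010 CPM per kb over its 484839 bases.

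**Figure D4:**
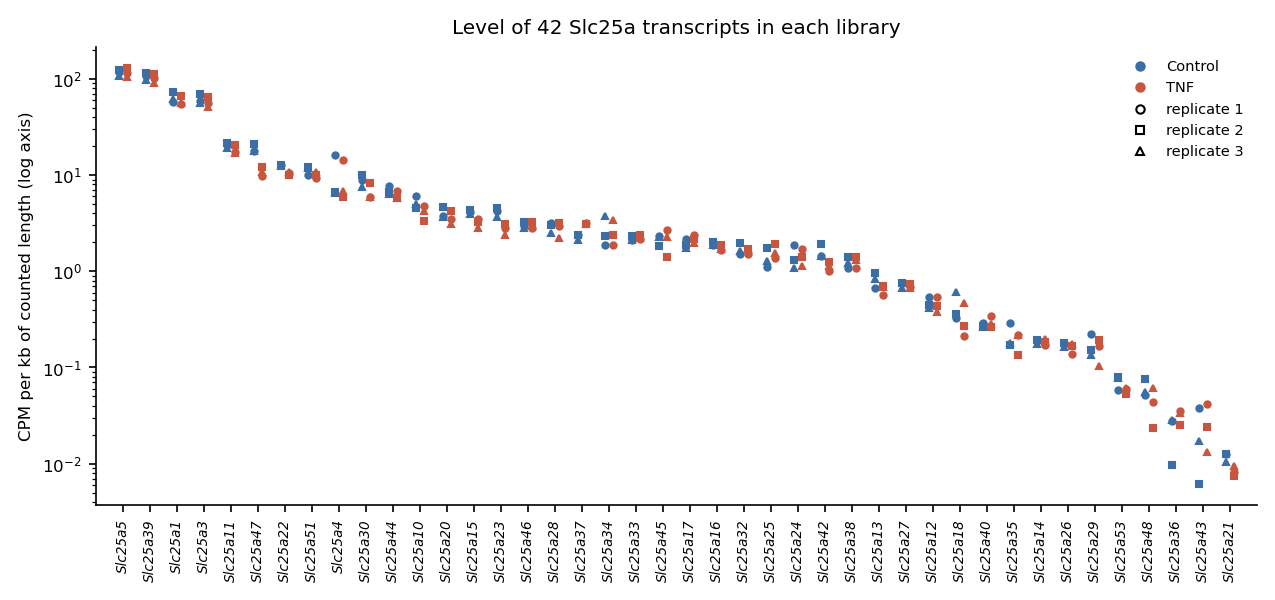
Level of 42 of the 43 tested members in CPM per kb of counted length (log axis), ordered by mean, for each Control (blue) and TNF (red) library. Slc25a5 and Slc25a39 lead at 117 and 104 CPM per kb, and the groups of Slc25a47 separate while those of most members overlap.

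Members differed between replicate numbers, as genes in general did. For 33 of 43 (76.7%) the range over the 3 replicate numbers, averaged over both treatments, was wider than the change with TNF. The same held for 83.2% of all genes tested. A range over 3 means tends to exceed a single difference by noise alone, so these shares cannot rank replicate number against treatment. On the log2 scale the members' median range was 0.29 and median absolute change 0.14, against 0.25 and 0.09 over all genes. Besides Slc25a4, the widest ranges were those of Slc25a18 (0.90) and Slc25a34 (0.87), both highest in the libraries numbered 3, and Slc25a24 (0.69), highest in those numbered 1. By contrast Slc25a22 (0.03), Slc25a21 (0.05) and Slc25a37 (0.10) held nearly the same level in the 3 numbers.

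**Figure D5:**
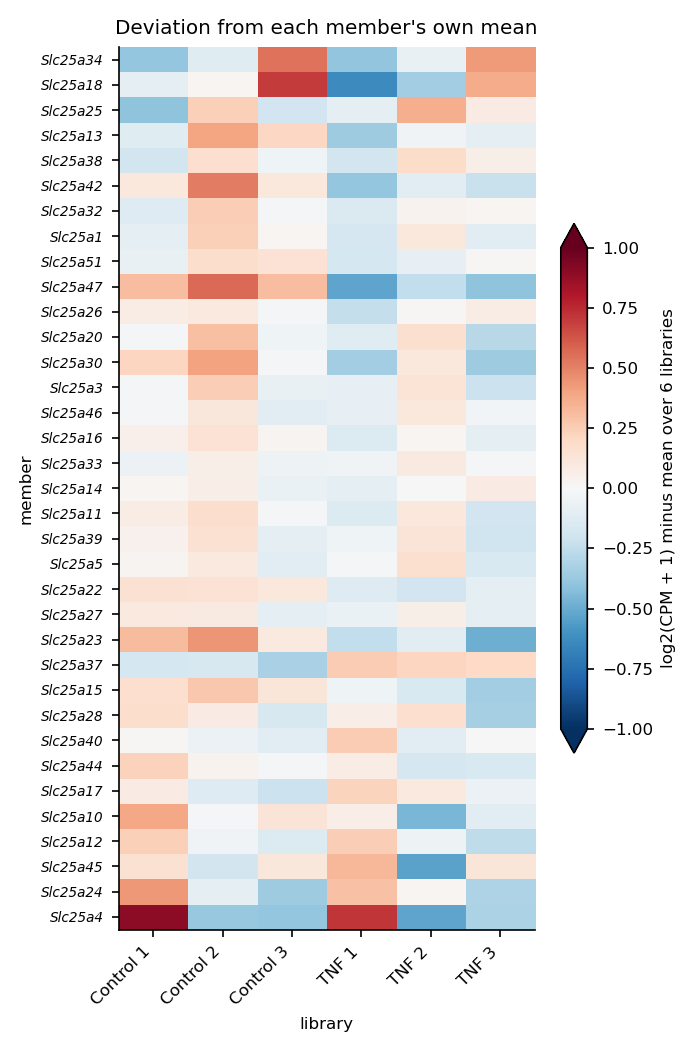
Deviation of 35 of the 36 members with a mean of 5 CPM or more from its own mean over the 6 libraries (colour, log2(CPM + 1)), by library and ordered by the libraries numbered 1. Slc25a4 is high in both libraries numbered 1, and Slc25a47 and Slc25a23 are high in Control and low in TNF whatever the number.

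Genes that work beside the carriers were read in the same fits. Of all genes tested, 11.2% fell and 9.40% rose. Carnitine shuttle genes fell in 3 of 6 tested cases: Crot, the peroxisomal carnitine octanoyltransferase, by 0.50 (355 ± 50.9 to 253 ± 48.1 CPM), Cpt1a, which makes acylcarnitines at the outer membrane, by 0.26, and Crat by 0.15. Urea cycle and malate-aspartate genes fell in 6 of 13 cases. Ass1, among the 13 and not called, had 79 of its 50401 bases counted and 40 to 77 reads per library, so it was hardly measured. Cps1, which forms carbamoyl phosphate, fell by 1.43, Arg1, which releases ornithine, by 0.93, glutamate dehydrogenase (Glud1) by 0.62, Nags by 0.26 and Gls2 by 0.17. None of either list rose. At an unadjusted p under 0.05 none was higher in either limma fit, against 14.2% of all genes with pairs and 4.44% without. Limma-voom with pairs called none higher. Of the carrier-fold genes with other symbols, Ucp2, an uncoupling protein homologue, fell by 0.52 (7.18 ± 1.26 to 4.83 ± 1.65 CPM) and Mtch1 by 0.13. Among 23 other mitochondrial solute transporters 5 fell and 2 rose. Those of lowest blocked p were the pyruvate carrier subunit Mpc2, which fell by 0.35 (80.5 ± 5.54 to 63.1 ± 5.62 CPM), and Sfxn1, a serine transporter, by 0.18. Mcur1, a regulator of calcium uptake, rose by 0.24 and the outer membrane channel Vdac3 by 0.14, while Vdac1 fell by 0.10. The unpaired limma fit, which called 0.431% of all genes, called no gene in these 4 lists. At an unadjusted p under 0.05 that limma fit had 1, 4, 0 and 2 lower (4.31% of all genes) and none higher (4.44%). Limma-voom without pairs called none.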

How the data were processed

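PolyA RNA of 3 Control and 3 TNF libraries was sequenced from paired ends, from 500 ng of total RNA. Reads were aligned with STAR 2.6.1a to mm10, per the submitters' processing notes. How reads were counted, with which annotation and strand setting, is not given in the sources used here. Each library's column held log2 CPM, deposited with a prior count in it. Per the file headers, further columns hold the authors' own fold change on the log2 scale, their likelihood ratio (a score), p-value and adjusted p-value; no source used here names the model. The counted length equalled the gene span in 85.0% of genes, so introns were counted.

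After the shared floor of -3.35 was subtracted on the linear scale, 100.0% of 118584 values were whole reads within 1e-06 reads. The authors' scaling was kept. Limma 3.58.1 in R 4.3.3 was run on log2(CPM + 1) with a trended prior, group as the only term, two-sided, with Benjamini-Hochberg adjustment over all 12293 genes with 10 scaled reads in 3 libraries and 15 in total. A count test was planned only for raw counts; limma-voom on the recovered reads was an alternative. Both fits were also run on simulated reads. The unpaired fit was given no replicate effect there, unlike these data, and the blocked fit was given such an effect. The simulation is thus no check of the unpaired fit under the replicate effects seen here.

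Deviations from the group means correlated at 0.78, 0.79 and 0.79 for same-numbered libraries, so the replicate numbers were taken as pairs. The others correlated at -0.47 to -0.34. Deviations within a group sum to 0, so these negative values follow from the positive ones and are no separate evidence. The pairing rests on the titles' numbers and on the correlations of same-numbered libraries. No label names a common day or animal. Every library differed from every other by more than sampling noise (chi-square over degrees of freedom 14.9 to 70.8).

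Members and gene lists were chosen with earlier results of these data known, and the 4 ratios and the motifs after values were seen. Named genes are Slc25a47, Slc25a20, each member past 0.05 in either fit, the 6 highest per kb, members of the same role groups, and, of the other lists, up to 5 genes of lowest blocked p among those called. Outside this rule, marker genes, genes overlapping a member, Ass1, Slc25a43 as a neighbour and Slc25a46 as background are also named. Annotation overlaps were read from GENCODE mouse release M21. Alternatives were other scalings, filters, pseudocounts and scales, limma-voom, and leaving out libraries. The values of 1 tested member are not reported here, though counts over members include it.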

Additional observations from a re-analysis of the deposited data

How the results depend on the processing

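With the replicate block the unpaired count of 1 member became 20. The unpaired count was 2 under median-of-ratios scaling, with Slc25a37 added, and 0 without a filter, where more genes were tested; it was 0 to 0 with any single library left out. In the blocked fit the 17 lower members became 11 without a filter and 12 to 13 when a replicate number was left out, and the 3 higher members stayed 3. Other blocked scalings, the filter at 1 CPM, pseudocounts of 0.1 and 5, the deposited log2 values and limma-voom gave 15 to 17 lower. No direction of the 20 members or of the 4 ratios changed under any alternative run, the ratios' alternatives being chosen after seeing the data. Each of the 20 members moved the same way in all 3 pairs, so leaving out a replicate number in the blocked fit could not change its direction. With 3 libraries a group, an exact test cannot go below 0.10.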

Other observations

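Some members lie next to each other in the genome, and in each of 4 such neighbouring pairs one gene was expressed and the other nearly silent in these cells. No other protein-coding gene lies between the 2 members of any of these pairs. On chromosome 12, Slc25a29 (1.04 to 2.21 CPM over the 6 libraries) and Slc25a47 (56.2 to 121 CPM) are 15252 bases apart on opposite strands. On chromosome 17, Slc25a41 (at most 0.166 CPM) lies 2056 bases from Slc25a23 (38.5 to 74.3 CPM), on the same strand. On chromosome 3, Slc25a54 (at most 0.049 CPM) is 6566 bases from Slc25a24 (49.4 to 85.9 CPM). On the X chromosome, Slc25a43 (0.207 to 1.39 CPM) is 18289 bases from Slc25a5 (337 to 419 CPM). Slc25a47 and Slc25a23, the members with the largest falls, thus each have a weakly expressed family member beside them. So do Slc25a24 and Slc25a5, which did not pass (log2 0.006 and -0.003). Slc25a29 did not pass (log2 -0.09), and Slc25a41 was too low to be tested.

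Genes for the machinery that inserts carriers in the inner membrane, and for ATP synthase, gave no call. Of 14 tested import genes and 16 ATP synthase genes, 0 passed limma with or without pairs, and 0 passed limma-voom in either form. Over all genes tested, 20.6% passed limma with pairs and 0.431% without. With pairs and no adjustment, 1 import gene was higher and 1 lower at p under 0.05, and 5 ATP synthase genes were lower. Over all genes tested, 14.2% were higher and 17.5% lower at that limit. Without pairs there were 0 in either list, against 4.44% of all genes higher and 4.31% lower. The lowest adjusted p of an ATP synthase gene in limma with pairs was 0.0501, just above the threshold. Changes ran from -0.12 to 0.14 for import and from -0.12 to 0.09 for ATP synthase, with medians of 0.03 and -0.06.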
